A study of Rattus norvegicus with 8 samples.

Results

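The Gpr and Gprc genes are a set of genes that carry a number in place of a ligand's name, because they were found by their likeness to G protein-coupled receptors before anyone knew what they bind. Members were the genes whose symbol in the array annotation starts with Gpr or Gprc followed by a number, each measured by the brightest probe set that pairs with that gene alone, brightness being the mean over the 8 arrays. By this rule 60 of the 14506 genes measured were members, and all 60 still carry the same symbol in RefSeq, where 81 genes match the rule. The others were not analysed here. Probe sets were chosen by their mean signal over all 8 arrays, which decided between 2 probe sets in Gpr137c and Gprc5c and left a single one in the other 58 genes. The difference between the groups was not part of the rule, but the family itself was proposed with earlier results of these data known, and no test is made over the members as a group.

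The cells were cardiomyocytes from the ventricles of newborn rats in primary culture. They received either a precursor of the microRNA miR-222 (4 arrays) or a scrambled control precursor (4 arrays) at 0.4 µM, and RNA was taken 48 h later. Such a precursor is a short made RNA that the cell processes into the mature microRNA. Both groups had been through the same lipid transfection, the labels name no untransfected cells, and they do not say whether each array had a culture of its own. The p-values below therefore reflect the spread among these arrays alone, some or all of which may be technical. The 12 cardiomyocyte markers examined had a median level of 13.3 log2 units, beside 8.39 over all genes. This level is a brightness and not an amount of RNA or a share of cells. Genes that mark other cells of the heart were measured as well (given near the end).

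G protein-coupled receptors cross the membrane with a bundle of helices and pass a signal from outside the cell to G proteins within, after which kinases and arrestins silence them. Most Gpr members belong to class A, the rhodopsin-like receptors, and the Gprc members belong to class C, with the glutamate and calcium-sensing receptors. The name does not guarantee a receptor at the cell surface. Gpr137 and Gpr155 proteins sit in lysosomes, Gpr107 and Gpr108 in the Golgi, Gpr15lg is the ligand of Gpr15, and Gpr33-ps1 is listed as a pseudogene. Nor are all of them still orphans, since protons, lysolipids, oxysterols, fatty acids or zinc are known to act on several. In the heart, Gpr22 is the member best known for its expression in cardiomyocytes.

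The microRNA whose precursor was given is shown first because it sets the groups apart. Its own level was not analysed here. The mature sequence of rat miR-222-3p, from RefSeq (GRCr8, chrX:6022682-6022702, plus strand), is set beside that of its neighbour miR-221-3p (chrX:6023246-6023268, plus strand), and capitals mark the seed, bases 2 to 8, with which a microRNA finds its targets and which these 2 share.
rno-miR-222-3p: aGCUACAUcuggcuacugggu
rno-miR-221-3p: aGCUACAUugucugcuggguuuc

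Most Gpr and Gprc genes did not pass the test. With miR-222, 7 of the 60 members were called lower and 1 was called higher, beside 1888 and 1693 of all genes. Here called means an adjusted p under 0.05 in limma, a linear model fitted to all probe sets of the table. When each array was centred on its median the members gave 8 and 0, beside 1863 and 1191 of all genes. After quantile normalization they gave 8 and 2, beside 1834 and 1759 of all genes. Gpr155, a lysosomal membrane protein that senses cholesterol in human cells, fell 2.68-fold, and Gprc5a, a class C receptor gene induced by retinoic acid, fell 2.45-fold. Gpr19, an orphan receptor, fell 1.57-fold. The falls of Gpr176, Gprc5b, Gpr63 and Gpr21 were of 1.20-fold to 1.28-fold, and Gpr180 rose 1.13-fold.

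The 8 called members are 13.3% of the family, beside 24.7% of all genes. In the same fit 13% of all genes were lower and 11.7% were higher. The members were dimmer than most genes, with a median level of 7.28 log2 units, and 50 of them lay below the median level of all genes. Among those 50, 5 were called (10%, beside 9.9% of all genes in that lower range), and among the other 10, 3 were called (30.0%, beside 39.5% of all genes in the upper range). On the log2 scale of differences, 30 members were above 0 and 30 below, the family median was 0.00 against 0.01 over all genes, and the median size of a difference was 0.13 against 0.12. The 4 miR-222 values lay wholly below the 4 control values in 10 members (17.0% of all genes did so) and wholly above them in 3 (16.4% of all genes). Together these are 21.7% of the members, beside 33.3% of all genes. Only 3 members, Gpr155, Gprc5a and Gpr19, were called with a change of at least 1.5-fold, which is 5.0% of the family beside 3.62% of all genes. All 3 were lower, and the direction of such changes over all genes was not counted. In bulk samples such as these, fewer cells of a type and less RNA per cell cannot be told apart.

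**Figure D1:**
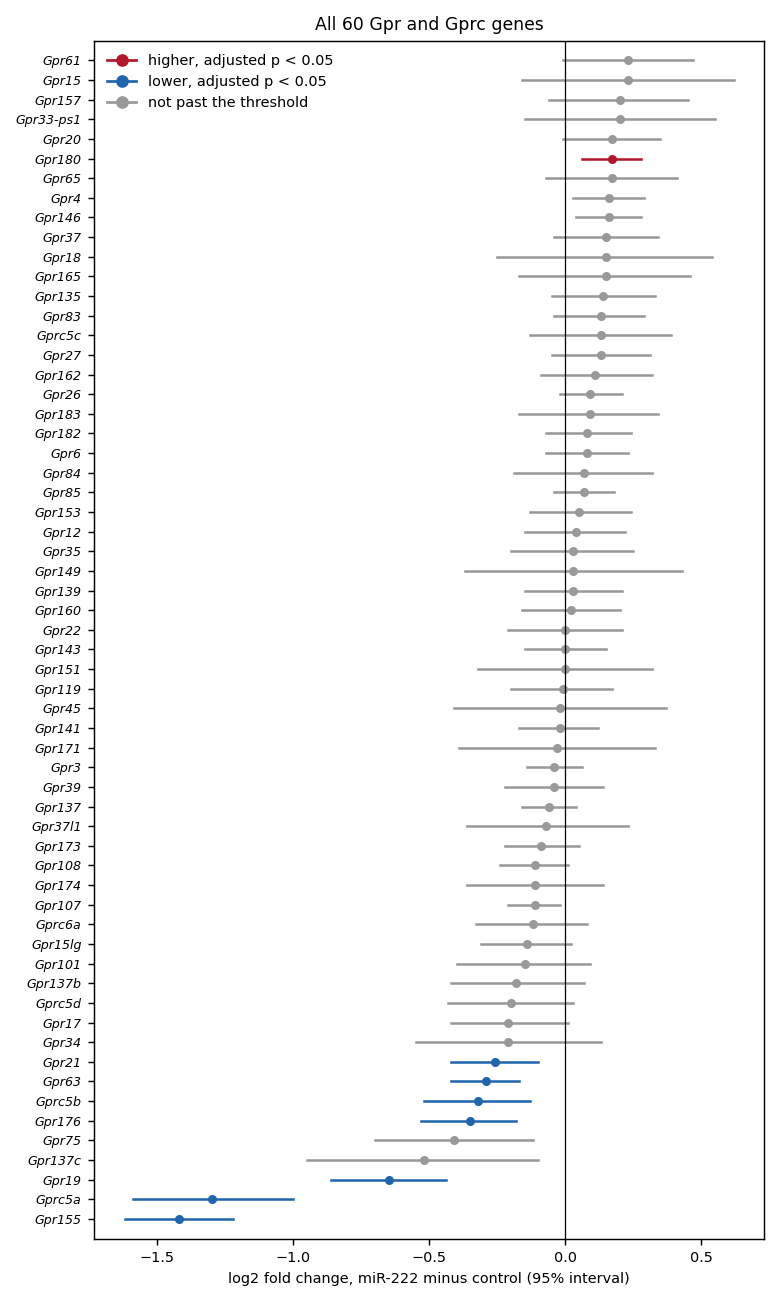
Log2 fold change of each of the 60 Gpr and Gprc genes, miR-222 minus control, with its 95% interval (n = 4 arrays in each group). Blue points are called lower, the red point is called higher and grey points did not pass. Gpr155 at -1.42 and Gprc5a at -1.30 lie apart from the rest, and no member that did not pass is further from 0 than Gpr137c at -0.52.

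**Figure D2:**
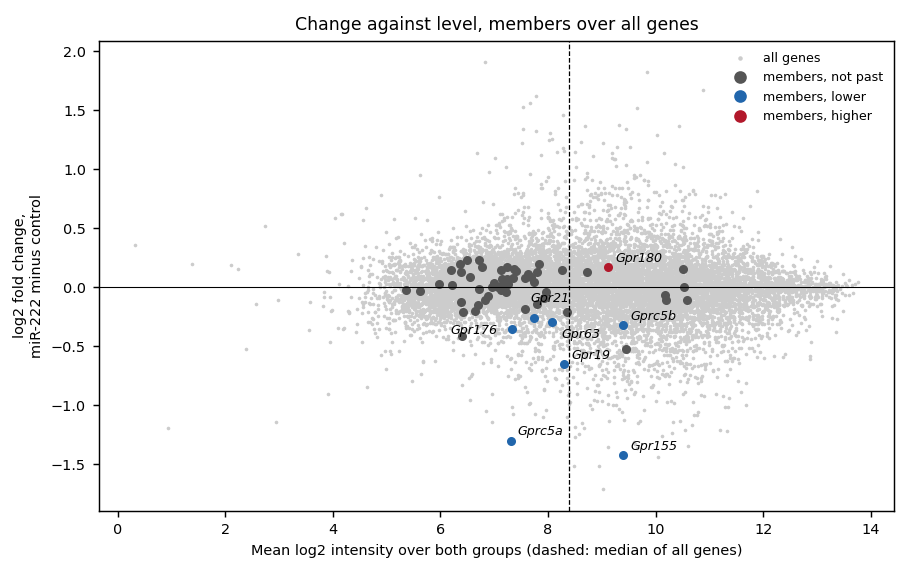
Log2 fold change (vertical axis, miR-222 minus control) against the mean log2 intensity of both groups (horizontal axis) for all genes (light grey) and for the members (dark grey where not past the threshold, blue where lower, red where higher). Most members lie left of the dashed line, which marks the median level of all genes.

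Among members whose proteins work inside the cell or differ from classical receptors, 1 of 9 was lower, 1 was higher and 7 did not pass. Of all genes 13% were lower and 11.7% higher. Gpr155 (probe set 10846185) measured 8.79, 8.82, 8.45 and 8.71 log2 units in the 4 miR-222 arrays and 10.08, 10.20, 10.14 and 10.02 in the 4 control arrays. Every miR-222 array thus lay more than 1 log2 unit below every control array. The difference was -1.42 (SE 0.09, 95% interval -1.62 to -1.22, limma adjusted p = 5.54e-05). Leaving out any single array moved it only between -1.46 and -1.34, and the adjusted p stayed at or below 5.41e-04.

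Gpr180, a membrane protein studied in the growth of vascular smooth muscle, was the member that rose. It measured 9.16, 9.26, 9.22 and 9.16 log2 units with miR-222 and 9.05, 8.96, 9.09 and 9.0 in controls, so that the groups did not overlap although the step was small. Its difference was 0.17 (SE 0.05, limma adjusted p = 0.0371). The call was kept without control replicate 3 but lost without any other single array, with an adjusted p of up to 0.0992, and it was also lost when every array was centred on its median (0.15, adjusted p = 0.118).

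The family of Gpr137, Gpr137b and Gpr137c, lysosomal proteins that act on the growth kinase complex mTORC1 in human cells, gave no called difference. Gpr137 averaged 10.15 ± 0.06 log2 units with miR-222 and 10.21 ± 0.01 in controls (SD, n = 4 each), with a 95% interval of -0.16 to 0.04 for the difference. Gpr137b differed by -0.18 (SE 0.11, adjusted p = 0.308). Gpr137c has 2 probe sets, and they disagreed. The brighter one (10779602), which the rule takes, measured 9.30, 9.47, 8.58 and 9.42 log2 units with miR-222 and 9.68, 9.66, 9.83 and 9.68 in controls. Its miR-222 values all lay below the controls, with replicate 3 far below the other 3. The difference was -0.52 (SE 0.18, adjusted p = 0.0924), and without miR-222 replicate 3 it was smaller but called, at -0.32 (SE 0.06, adjusted p = 0.0161). The dimmer probe set (10779591) averaged 9.09 with miR-222 and 8.96 in controls, a difference of 0.13 in the other direction (SE 0.08, adjusted p = 0.280).

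The Golgi proteins gave no called difference either. Gpr107 averaged 10.53 ± 0.05 log2 units with miR-222 and 10.64 ± 0.04 in controls, a difference of -0.11 with groups that did not overlap (SE 0.04, adjusted p = 0.107). It passed with dim probe sets left out (adjusted p = 0.0441) and with a variance trend (adjusted p = 0.0431), but under no other alternative (adjusted p of 0.0781 to 0.235). For its relative Gpr108 the means were 10.13 ± 0.09 with miR-222 and 10.24 ± 0.04 in controls, and the groups overlapped (difference -0.11, SE 0.05, adjusted p = 0.194). Gpr143, the ocular albinism gene, whose protein sits in melanosomes, and Gpr157, described in cilia of neural progenitors in mouse, did not pass either, at 0.00 (SE 0.06) and 0.20 (SE 0.11).

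Among the class C members 2 of 5 were lower and 3 did not pass, beside 13% of all genes lower. A group this small was not tested against that share. Gprc5a (probe set 10859277) measured 6.62, 6.89, 6.34 and 6.78 log2 units with miR-222 and 8.10, 7.91, 8.06 and 7.75 in controls, so the groups stood well apart. The difference was -1.30 (SE 0.13, 95% interval -1.59 to -1.0, limma adjusted p = 3.96e-04), and the call was kept whichever array was left out (adjusted p up to 0.00233). The miR-222 values lay toward the low end of the array, where background can compress a fold change.

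Gprc5b, a relative of Gprc5a studied in fat tissue and smooth muscle, measured 9.10, 9.07, 9.39 and 9.37 log2 units with miR-222 and 9.53, 9.49, 9.60 and 9.59 in controls. The miR-222 arrays fell into a lower and a higher pair, both below the controls. Its difference was -0.32 (SE 0.08, adjusted p = 0.0323), a call that was lost without any single array other than miR-222 replicate 3 or 4 (adjusted p up to 0.0809). Gprc5c differed by 0.13 (SE 0.11, adjusted p = 0.506) and by -0.01 (SE 0.12) at its second probe set. Gprc5d, known from plasma cells, differed by -0.20 (SE 0.10, adjusted p = 0.232), and Gprc6a, a receptor of amino acids and cations, by -0.12 (SE 0.09, adjusted p = 0.398).

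**Figure D3:**
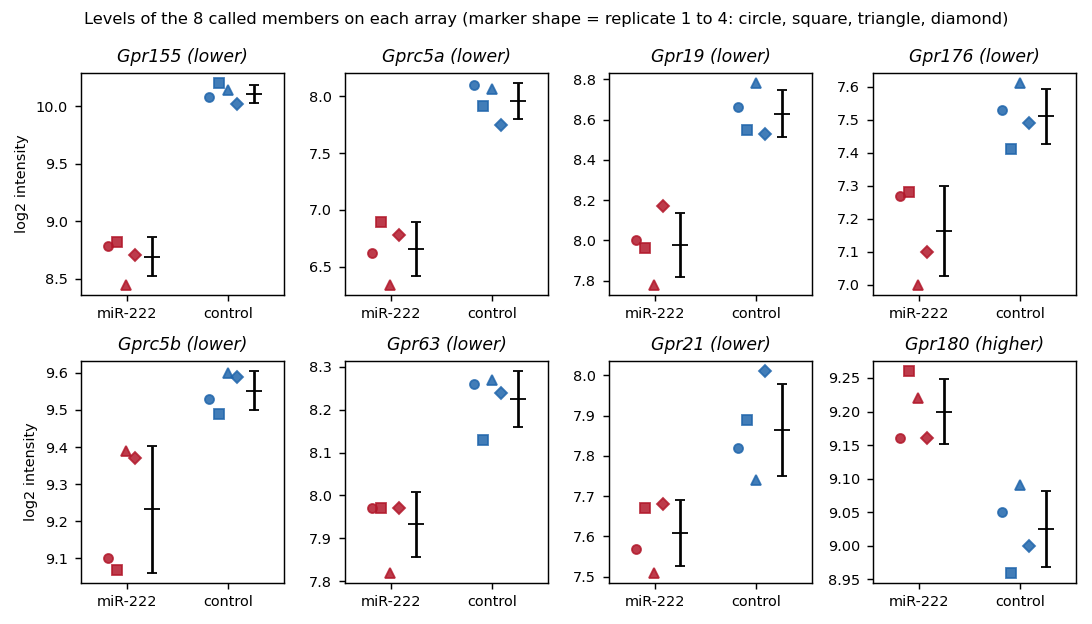
Log2 intensity on each array of the 8 called members, miR-222 (red) left of control (blue). Marker shapes give the replicate and the black bars the mean with its SD (n = 4 each). The vertical scale differs between panels. In all 8 panels the groups do not overlap, and the miR-222 triangle (replicate 3) is the lowest point in 6 of them.

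Among the class A orphans of brain, heart and other tissues, 4 of 22 were lower, 0 were higher and 18 did not pass. Of all genes 13% were lower and 11.7% higher, and the orphans were not tested against those shares. Among the orphans 0 more had an unadjusted p under 0.05 in limma. Gpr19 (probe set 10866410), described in brain and in tumour cells, measured 8.0, 7.96, 7.78 and 8.17 log2 units with miR-222 and 8.66, 8.55, 8.78 and 8.53 in controls. Every miR-222 array was below every control array. The difference was -0.65 (SE 0.09, limma adjusted p = 0.00207), and the call held without any single array (adjusted p up to 0.00946).

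Gpr176, a receptor that acts through the G protein Gz and tunes the circadian clock of the mouse brain, measured 7.27, 7.28, 7.0 and 7.10 log2 units with miR-222 and 7.53, 7.41, 7.61 and 7.49 in controls. The difference was -0.35 (SE 0.08, adjusted p = 0.0146), and the adjusted p reached 0.0438 at most when 1 array was left out. Gpr63, an orphan described in brain, measured 7.97, 7.97, 7.82 and 7.97 with miR-222 and 8.26, 8.13, 8.27 and 8.24 in controls. These groups were narrow and did not overlap, and the difference was -0.29 (SE 0.05, adjusted p = 0.00719, up to 0.0274 with 1 array left out).

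Gpr21, an orphan that affects energy balance in mice, measured 7.57, 7.67, 7.51 and 7.68 log2 units with miR-222 and 7.82, 7.89, 7.74 and 8.01 in controls. The highest miR-222 value came close to the lowest control value. Its difference was -0.26 (SE 0.07, adjusted p = 0.0351), and leaving out miR-222 replicate 1 or 3, or control replicate 1, 2 or 4, ended the call (adjusted p of up to 0.0875).

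Gpr22, the member known from cardiomyocytes, did not differ detectably. It measured 10.61, 10.25, 10.64 and 10.58 log2 units with miR-222 and 10.47, 10.56, 10.62 and 10.44 in controls, so that the groups overlapped, with miR-222 replicate 2 below every control array and the other 3 miR-222 arrays among or just above the controls. The difference was 0.00 with a 95% interval of -0.21 to 0.21 (adjusted p = 0.997). Gpr61, an orphan related to amine receptors, had a difference of 0.23 (SE 0.10, adjusted p = 0.187), with means of 6.6 ± 0.17 with miR-222 and 6.37 ± 0.16 in controls. The differences of the remaining 16 orphans that did not pass were all smaller than 0.25 in size.

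The role groups put together here for receptors of protons, lipids, metabolites, peptides, proteins and metals, and for receptors with high basal activity, held no called member. Ligands have also been proposed for some members grouped as orphans above. In these role groups 4 members, Gpr4, Gpr146, Gpr75 and Gpr107, had an unadjusted p under 0.05 in limma. Of the proton sensors, Gpr4 measured 7.38, 7.50, 7.42 and 7.48 log2 units with miR-222 and 7.30, 7.37, 7.15 and 7.31 in controls. The miR-222 values lay just above the controls, and the difference of 0.16 did not pass (SE 0.06, adjusted p = 0.0977), although it did once dim probe sets were left out (adjusted p = 0.0464). No other alternative brought Gpr4 past the threshold (adjusted p of 0.0841 to 0.193). The sensor Gpr65, known from leukocytes, differed by 0.17 (SE 0.10, adjusted p = 0.323). The receptors Gpr3, Gpr6 and Gpr12, which raise cyclic AMP without an added ligand, differed by -0.04 (SE 0.04), 0.08 (SE 0.07) and 0.04 (SE 0.08).

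The 9 measured members grouped here as receptors of lipids and metabolites lay between -0.21 and 0.15. Gpr17, known from oligodendrocyte precursors, averaged 8.24 ± 0.14 log2 units with miR-222 and 8.45 ± 0.15 in controls, a difference of -0.21 (SE 0.09, adjusted p = 0.172). Gpr34, a receptor of lysophosphatidylserine on microglia and macrophages, averaged 6.32 ± 0.24 with miR-222 and 6.53 ± 0.23 in controls, and the wide spread gave a difference of -0.21 with an SE of 0.15 (adjusted p = 0.386). The oxysterol receptor Gpr183, which guides B cells, differed by 0.09 (SE 0.11), and Gpr84, a receptor for medium-chain fatty acids on myeloid cells, by 0.07 (SE 0.11).

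Of the 8 members grouped here under peptide, protein or metal ligands, none passed. This grouping does not settle which ligand each of them has. Gpr146, which affects blood cholesterol through the liver in mice, measured 10.50, 10.58, 10.70 and 10.56 log2 units with miR-222 and 10.47, 10.38, 10.43 and 10.40 in controls. All 4 miR-222 values lay above the controls, and the difference of 0.16 narrowly missed the threshold (SE 0.05, adjusted p = 0.0644). It passed after quantile normalization, with dim probe sets left out and with a variance trend (adjusted p of 0.0202 to 0.0372). Under every other alternative, median centring and each array left out among them, it did not pass (adjusted p of 0.0539 to 0.166). Gpr75, linked to body weight in humans, measured 6.20, 6.52, 5.85 and 6.23 with miR-222 and 6.62, 6.58, 6.54 and 6.71 in controls. Its miR-222 values were all below the controls but widely spread, and the difference of -0.41 did not pass (SE 0.13, adjusted p = 0.0578). It passed without miR-222 replicate 2, at -0.52 (adjusted p = 0.0129), and also under 5 alternatives that kept every array: quantile normalization, median centring, a pseudocount, a variance trend and array weights (adjusted p of 0.019 to 0.0488). It did not pass with the mean of probe sets (adjusted p = 0.0577) or with any other single array left out (adjusted p of 0.0696 to 0.127). Gpr75 is dim, at percentile 13.8 of gene levels, and the filter on dim probe sets removed it. Gpr15, which directs T cells to the gut, averaged 6.83 ± 0.22 with miR-222 and 6.6 ± 0.32 in controls (difference 0.23, SE 0.17, adjusted p = 0.421), and its ligand Gpr15lg differed by -0.14 (SE 0.07, adjusted p = 0.223).

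Within the miR-222 group, replicate 3 gave the lowest value in 6 of the 8 called members: Gpr155, Gprc5a, Gpr19, Gpr176, Gpr63 and Gpr21. In several of them, such as Gpr21, the step to the next array was small. Over all 60 members it was the lowest miR-222 array in 21 and the highest in 10. Without it, Gpr155 differed by -1.34 (SE 0.06), Gprc5a by -1.19 (SE 0.10) and Gpr19 by -0.58 (SE 0.08), and all 3 were still called. The count of lower members was 7 both with and without it, with Gpr21 lost (adjusted p = 0.0841) and Gpr137c gained. Only 5 of the 8 calls, those of Gpr155, Gprc5a, Gpr19, Gpr176 and Gpr63, held whichever single array was left out.

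**Figure D4:**
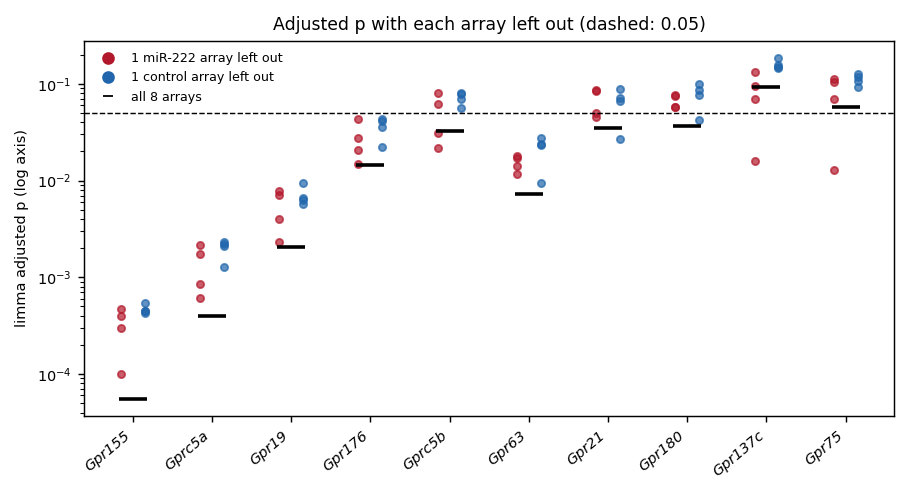
Adjusted p of the 8 called members and of Gpr137c and Gpr75 on a log axis, with all 8 arrays (black dash) and with 1 miR-222 array (red) or 1 control array (blue) left out. The points of Gpr155, Gprc5a, Gpr19, Gpr176 and Gpr63 all lie below the dashed line at 0.05.

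Gpr19 and Gprc5a, both lower, are near neighbours on rat chromosome 4 in RefSeq (GRCr8). Between them lie Cdkn1b, Apold1 and Ddx47, and Gprc5d follows Gprc5a. Cdkn1b encodes the cell cycle inhibitor p27 and is a known target of miR-222, and it averaged 10.55 ± 0.02 log2 units with miR-222 and 10.95 ± 0.02 in controls (difference -0.39, SE 0.04, adjusted p = 2.69e-04). The RNA helicase gene Ddx47 was also lower, at -0.14 (SE 0.03, adjusted p = 0.0223), as were, on the far side of Gpr19, Crebl2 at -0.18 (SE 0.05, adjusted p = 0.0437) and the phosphatase gene Dusp16 at -0.32 (SE 0.08, adjusted p = 0.0218). Apold1, between Gpr19 and Gprc5a, measured -0.03 (SE 0.11), and Mansc1, a few genes further out, was higher at 0.63 (SE 0.08, adjusted p = 0.00146). The 5 genes after Gprc5a did not pass: Gprc5d at -0.20, Hebp1 at 0.02, Fam234b at 0.03, Gsg1 at 0.13 and Pbp2 at 0.08. Borcs5 at 0.03 and Lrp6 at 0.06, before Gpr19, did not pass either. The 5 genes before and the 5 after each called member were looked up once the calls were known. Gpr19 and Gprc5a are each among the other's neighbours. With these 2 called members left out, the neighbours of all 8 came to 56 measured genes, of which 11 were lower, 8 higher and 37 not past the threshold, beside 13% of all genes lower and 11.7% higher.

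**Figure D5:**
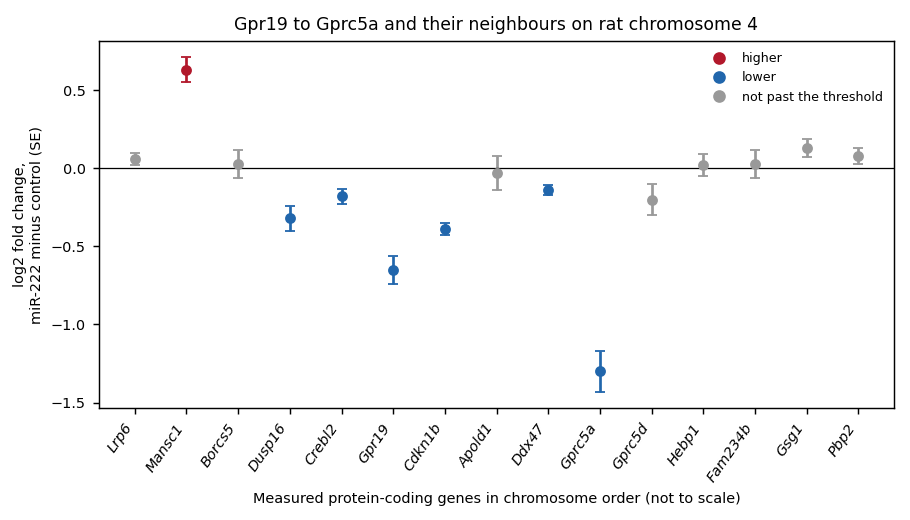
Log2 fold change with SE (miR-222 minus control, n = 4 each) of the measured protein-coding genes around Gpr19 and Gprc5a, in chromosome order and not to scale. Blue genes were called lower, the red gene higher and grey genes did not pass. Gprc5a at -1.30 and Gpr19 at -0.65 are the lowest points, with Cdkn1b at -0.39 between them.

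Called neighbours of Gpr176, Gpr180, Gpr21 and Gpr63 went both ways, those of Gprc5b were both lower and that of Gpr155 was higher. Beside Gpr155 lie Scrn3, which was higher at 0.37 (SE 0.05, adjusted p = 0.00202), and Wipf1, which did not pass at -0.05 (SE 0.07). Gpr180 lies next to Tgds, which encodes a sugar nucleotide dehydratase and was higher by the same amount, 0.17 (SE 0.04, adjusted p = 0.0244). Gpr176 lies a few genes from Rasgrp1, an activator of Ras that was higher at 1.83 (SE 0.10, adjusted p = 4.78e-05), and from the matrix gene Thbs1, which was lower at -0.90 (SE 0.06, adjusted p = 9.53e-05). Of 8 measured neighbours of Gprc5b, Gde1 was lower at -0.16 (SE 0.03, adjusted p = 0.0114), Ccp110 was lower at -0.52 (SE 0.09, adjusted p = 0.00601) and 6 did not pass. Of 7 neighbours of Gpr21, Rc3h2 was lower at -0.50 (SE 0.07, adjusted p = 0.00197), while Strbp and Zbtb6 were higher at 0.29 and 0.18. Near Gpr63, Mms22l was lower at -0.70 (SE 0.14, adjusted p = 0.0107) and Manea higher at 0.19 (SE 0.04, adjusted p = 0.0125).

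Several members lie inside a larger gene, where a probe set could also pick up RNA of the host, and whether it does was not tested. Gpr21 lies within Rabgap1, which did not pass at 0.06 (SE 0.04, adjusted p = 0.322) while Gpr21 was lower. Gpr146 lies within C12h7orf50, which measured the same difference of 0.16 and did not pass either (SE 0.07, adjusted p = 0.158). Gpr17 lies within Lims2, which was lower at -0.30 (SE 0.07, adjusted p = 0.0150). Gpr18 and Gpr183 lie within Ubac2, which was lower at -0.28 (SE 0.04, adjusted p = 0.00186), whereas both measured above 0. Gpr34 lies within Cask, which was higher at 0.29 (SE 0.05, adjusted p = 0.00326), and Gpr65 overlaps Galc, which was higher at 0.84 (SE 0.06, adjusted p = 8.18e-05). Gpr22 lies within Cog5, which was not measured.

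A promoter sequence was found in the RefSeq table for 46 of the 60 members and for 5 of the 8 called ones. The 250 bases before the start of Gpr155, the member with the largest fall, and of Gpr180, the member that rose, are shown with the motifs found in them in capitals (GRCr8, Gpr155 at chr3:78677804-78678053 on the minus strand and Gpr180 at chr15:101606681-101606930 on the plus strand).
Gpr155: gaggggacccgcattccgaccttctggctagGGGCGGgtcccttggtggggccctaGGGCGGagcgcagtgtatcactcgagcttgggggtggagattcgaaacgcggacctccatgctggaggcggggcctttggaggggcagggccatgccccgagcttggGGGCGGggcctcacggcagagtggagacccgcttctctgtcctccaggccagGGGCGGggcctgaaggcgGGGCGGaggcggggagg
Gpr180: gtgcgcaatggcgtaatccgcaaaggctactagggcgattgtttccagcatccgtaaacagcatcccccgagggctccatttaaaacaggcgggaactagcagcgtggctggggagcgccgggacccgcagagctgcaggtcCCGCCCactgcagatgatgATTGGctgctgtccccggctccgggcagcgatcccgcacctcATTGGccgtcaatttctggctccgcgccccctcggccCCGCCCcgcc

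Both windows were rich in G and C, at 71.2% for Gpr155 and 65.2% for Gpr180, against a median of 58.6% over the members and 52.0% over 27457 promoters. The capitals mark GC boxes (GGGCGG, or CCGCCC on the other strand) and CCAAT boxes (CCAAT, or ATTGG on the other strand), and none of the letter strings searched contains another. A GC box was present in 18 of 46 members (39.1%) and in 32.4% of all promoters, and a CCAAT box in 18 of 46 (39.1%) and in 34.3% of all. The letters TATAAA were present in 7 members (15.2%, against 13.1% of all), the cyclic AMP element TGACGTCA in 1 (2.17%, against 1.7%), and neither the AP-1 motif TGANTCA (6.36% of all) nor the E2F motif TTTGGCGC (0.426% of all) in any. These matches describe letters in a window and are not binding sites.

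Related receptors under other names were read from the same fit, in which 11.7% of all genes were higher and 13% lower. Whether these lists differ from those shares was not tested. Of 15 measured adhesion receptors, many of which were once numbered as Gpr genes, 3 were higher, 2 lower and 10 not past the threshold, with a median of -0.03. Adgrg1, a receptor of collagen III known from muscle growth in mice, was higher, at 10.12 ± 0.08 log2 units with miR-222 and 8.93 ± 0.05 in controls (difference 1.19, SE 0.05, limma adjusted p = 2.35e-05). The leukocyte receptor gene Adgre5 was higher at 0.36 (SE 0.05, adjusted p = 0.00207) and the latrophilin gene Adgrl1 at 0.35 (SE 0.05, adjusted p = 0.00305). Of 34 receptors under other names, most of them once numbered Gpr, 3 were lower, 30 did not pass and Prokr1 was higher, with a median of -0.04. The R-spondin receptor gene Lgr4 was lower at -0.76 (SE 0.05, adjusted p = 1.10e-04), the sphingosine-1-phosphate receptor gene S1pr2 at -0.65 (SE 0.06, adjusted p = 3.27e-04) and the chemokine scavenger gene Ackr3 at -0.35 (SE 0.07, adjusted p = 0.00879).

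Genes that silence receptors or carry them through the cell went both ways, with 3 of 21 higher, 3 lower and 15 not past the threshold (median 0.01). Of all genes 11.7% were higher and 13% lower, and whether this list differs from those shares was not tested. Arrb1, an arrestin that uncouples receptors from G proteins, was higher at 0.26 (SE 0.05, adjusted p = 0.00757). Gprasp3, of the receptor sorting proteins, was lower at -0.30 (SE 0.04, adjusted p = 0.00173), and so was Snx27, which returns receptors from endosomes to the surface, at -0.27 (SE 0.04, adjusted p = 0.00316).

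Genes that mark other cells of the heart were read beside these results, and their part in them was not tested. The counts below stand beside 11.7% of all genes higher and 13% lower. Of 16 macrophage and leukocyte markers 1, C1qa, was higher and 15 did not pass (median 0.06), with a summed intensity of 2191 to 2587 with miR-222 and 2145 to 2288 in controls, and the leukocyte receptors Gpr34, Gpr65, Gpr84 and Gpr183 did not pass either. Of 12 fibroblast markers 4 were lower and 8 did not pass (median -0.18, summed intensity 9174 to 10439 with miR-222 and 10575 to 11772 in controls), with Thy1 at -0.64, Lum at -0.89 and Postn at -0.54. Of 11 endothelial markers 2 were lower, Kdr at -1.51 and Eng at -0.27, and 9 did not pass, at -0.13 to 0.20 (median -0.09). Their summed intensity was 2744 to 2902 with miR-222 and 3435 to 3704 in controls, and Kdr had by far the largest fall in it. Of 10 markers of smooth muscle and pericytes 3 were lower, among them Tagln at -0.91 and Cspg4 at -0.72, 6 did not pass and Abcc9 was higher at 0.41 (median -0.09, 27203 to 30079 with miR-222 and 31251 to 31614 in controls). The brightest of these, Des, Acta2 and Abcc9, at percentiles 94.7 to 99.7 of gene levels, weigh most in this sum. Which cells their signal came from, cardiomyocytes included, was not tested. None of 6 Schwann cell markers passed in limma, also at an unadjusted p under 0.05 (median 0.10, 1047 to 1150 with miR-222 and 952 to 1123 in controls). Of 12 cardiomyocyte markers 3 were lower, Myh7 at -0.61, Nppa at -0.20 and Ryr2 at -0.14, and 9 did not pass (median -0.08, 106506 to 109884 with miR-222 and 116816 to 118703 in controls). All 12 measured below 0 (-0.61 to -0.01), and 6 of them, the called ones included, had an unadjusted p under 0.05 in limma. No marker was at or below 0 log2 units on any array, but only 212 values in the whole table were. This check therefore cannot tell which markers were expressed.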

How the data were processed

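The deposited table held intensity values on a linear scale, from 0.8 to 16339, for 29170 probe sets on 8 arrays. The authors had processed them, and how they did so is not given in the sources. Per the labels, biotin-labelled RNA was hybridised in 1 colour. The array named in the series text is not the one whose annotation pairs with the table. Scanner files, detection calls and batches were not used here, and array medians were 202 to 218.9. The number of arrays limits the precision.

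Values were taken as log2 without a pseudocount. All probe sets entered limma 3.58.1 (lmFit, eBayes) in R 4.3.3, miR-222 minus control, 2-sided, with Benjamini-Hochberg adjustment over all probe sets. Of these, 15310 paired with 1 gene, 323 with several and 13537 with none. Differences are log2 fold changes with the SE of the fit. Levels of different probe sets are not amounts of RNA that can be compared. Replicates are numbered in the order listed. The fit was also run on simulated data with independent normal noise and few changed probe sets. That run did not cover small differences such as that of Gpr180. Figures were drawn with matplotlib 3.10.9.

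The members and lists were chosen with earlier results of these data known. Named members were those called, the 6 others with the largest differences, the 6 brightest and the brightest of each role list. Others were named after their values were seen, to complete a group. Of the companion and marker lists, up to 3 members with the smallest p were named, and Prokr1 as the single higher one of its list. Gpr107 stood in 2 role lists and 3 members in none. Alternatives were another normalization, median centring, a filter on dim probe sets (lowest 40%), a pseudocount of 16, a trend in the variance, array weights, the mean of a gene's probe sets, and each array left out. The fit with a variance trend also used the robust option of limma.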

Additional observations from a re-analysis of the deposited data

Results flagged for a closer look

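Each member's 4 values in each group were examined for 1 array far from the other 3, by Dixon's ratio of the gap to the whole range with its 95% limit for 4 arrays. Of 120 such groups 11 were beyond the limit, where independent normal values would give about 1 in 20. The groups share the same 8 arrays, however, and the share over all genes was not counted. These counts are therefore not a result about the members. In 6 of the 11 the array was miR-222 replicate 2, which had the lowest array weight in limma (0.57). That array was low in Gpr22, at 10.25 log2 units where the other 3 lay from 10.58 to 10.64, and in Gpr107, at 10.46 against 10.55 in the others. It was high in Gpr27, at 8.98 against 8.72 to 8.74, in Gpr35, at 7.53 against 7.18 to 7.20, in Gpr153, at 7.96 against 7.69 to 7.73, and in Gpr149, at 6.57 against 5.73 to 5.86. Gpr165 was low in miR-222 replicate 4, at 5.89 against 6.36 to 6.41, and Gpr63 was low in miR-222 replicate 3, at 7.82 against 7.97 in the others. Among control arrays, Gpr63 was low in replicate 2, at 8.13 against 8.24 to 8.27, Gpr183 was high in replicate 2, at 6.78 against 6.40 to 6.43, and Gpr137c was high in replicate 3, at 9.83 against 9.66 to 9.68. Gpr63 is the 1 called member among them, and its call held without any single array.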

How the results depend on the processing

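The 7 lower members were 5 to 7 with 1 array left out and 7 to 9 under the other alternatives. The single higher member, Gpr180, was less stable: the count was 2 after quantile normalization or with a variance trend, 3 with dim probe sets left out (33 members remained), 0 after median centring, and 0 to 1 with 1 array left out. Genes called in the whole table, 3581, were 2687 to 3405 with 1 array left out and 3054 to 4257 otherwise, and the family median stayed between -0.04 and 0.04. Of the values recomputed for the 21 named members, 279 kept their side of the threshold, 19 lost it and 13 gained it. Direction was kept in each of them except Gpr22, whose difference of 0.00 gave values from -0.04 to 0.09. No paired analysis was possible because the labels give no replicate numbers or pairing. Dim signals limit the members below the median level, where background can compress a fold change. The cause of these shifts was not tested.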
